A study of Mus musculus with 2 samples.

Results

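The genes described here encode the proteins of the cytosolic ribosome. They were chosen by name: protein-coding genes on chromosomes 1 to 19 whose symbol is Rpl or Rps followed by a digit, or is Rplp0, Rplp1, Rplp2 or Rpsa, without the Rps6k kinases and without symbols carrying a pseudogene suffix. GENCODE mouse release 21 held 82 such genes among 20722 protein-coding genes with an annotated start on these chromosomes. Sorted by their symbols, 43 encode core proteins of the large subunit, 30 core proteins of the small subunit and 8 are paralogs of core genes (Rpl3l, Rpl7l1, Rpl10l, Rpl22l1, Rpl36al, Rpl39l, Rps27l and Rps27rt). A single symbol that meets the rule, Rps19bp1, belongs to a protein that binds Rps19 and is not a ribosomal protein. Every autosome but chromosome 19 carried a member, with 14 on chromosome 7 and 8 each on chromosomes 9 and 17.

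A cytosolic ribosome needs most of its core proteins in equal amount. These genes are transcribed at high rates in growing cells, and T cells raise ribosome output when they are activated. Their promoters are compact and usually lack a typical TATA box. Transcription often begins at a C inside a run of C and T, and the resulting messenger RNAs begin with a 5′ terminal oligopyrimidine tract, or TOP, which ties their translation to growth signals through mTOR. Many of the genes also host small nucleolar RNAs in their introns.

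The measurements were lists of open chromatin regions from libraries labelled as ATAC-seq, a method that uses a transposase to cut accessible DNA, in primary T cells of the mouse strain C57BL/6NJ. The series held 1 group of 2 libraries, labelled as biological replicates 1 and 2, with the same donor record, so separate animals cannot be assumed. The names of the regions carry the words Th0, 72hrs, ASTARR.insert, masked and dedup, none explained by the labels, so that the assay is given here as labelled and how repeated reads were handled is not known. No treatment, age or sex is given. With 1 group and 2 libraries no test between conditions was possible, so all that follows is description, and a region not listed cannot be told from one below the caller's threshold, since the depth is unknown. There were 78016 regions in replicate 1 and 74653 in replicate 2 on the chromosomes analysed. Promoters of 9 of 10 T cell markers had a region in both libraries (Cd3e had a signal of 7.61 and 7.93, and Cd247 had none), against 0 of 4 B cell, 0 of 4 myeloid and 0 of 3 liver markers. In a single library, the myeloid marker Cd14 had a region of 9.03 (replicate 1) and the B cell marker Cd79b one of 3.18 (replicate 2).

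Start sequences are shown first because the base at the start and the C and T run around it define a TOP message. Each run below is 40 bases of the RefSeq promoter table (build GRCm38.p6), 5′ to 3′ on the gene's own strand, from 20 bases before the annotated start base to 19 after it. Capitals mark the unbroken run of C and T that holds the start base, and a sequence without capitals starts on an A or G. The first 6 are core genes with long runs, Rplp0 is a core gene without one, Rps27rt is a retrogene of Rps27, and Rpl3l is a muscle paralog with no open promoter here.
Rpl15: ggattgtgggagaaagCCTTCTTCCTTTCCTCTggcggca
Rpl35: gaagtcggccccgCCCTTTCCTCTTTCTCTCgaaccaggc
Rps10: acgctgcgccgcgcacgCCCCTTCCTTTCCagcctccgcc
Rps18: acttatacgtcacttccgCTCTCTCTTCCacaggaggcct
Rps6: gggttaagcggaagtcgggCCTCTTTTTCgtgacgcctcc
Rps27: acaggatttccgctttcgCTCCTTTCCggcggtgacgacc
Rplp0: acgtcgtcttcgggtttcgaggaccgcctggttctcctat
Rps27rt: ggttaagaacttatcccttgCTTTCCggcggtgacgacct
Rpl3l: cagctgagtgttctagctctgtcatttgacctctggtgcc
The windows lie at chr14:18270967-18271006, minus strand (Rpl15), chr2:39005112-39005151, minus strand (Rpl35), chr17:27635225-27635264, minus strand (Rps10), chr17:33955646-33955685, minus strand (Rps18). Those of the next genes lie at chr4:86857348-86857387, minus strand (Rps6), chr3:90213629-90213668, minus strand (Rps27), chr5:115559447-115559486, plus strand (Rplp0). The last 2 lie at chr9:114982720-114982759, minus strand (Rps27rt) and chr17:24727806-24727845, plus strand (Rpl3l). The run measured 17 bases in Rpl15, 18 in Rpl35, 13 in Rps10, 11 in Rps18, 10 in Rps6 and 9 in Rps27, and in each of them the annotated start base was a C.

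Of the 82 genes, 62 were in the promoter table, with 74 annotated promoters. The start base was a C in 23 of these 74 (31.1%), against 13.9% of 19167 protein-coding promoters, 14.6% of 13259 promoters of genes with an open promoter region and 14.7% of 75 mitochondrial ribosomal protein promoters. A run of at least 5 C or T bases held the start base in 20 promoters (27.0%), against 8.70% of all promoters, 9.06% of those of genes with an open region and 5.33% of the mitochondrial ribosomal ones. A C start inside such a run was found in 15 promoters (20.3%), against 4.88%, 5.03% and 2.67%. The minimum of 5 bases was chosen after the values were seen, and RefSeq starts need not be the exact cap sites, so these shares describe the annotation. The mitochondrial ribosomal proteins, which are nuclear-encoded and build the ribosome of mitochondria, serve throughout as the nearest comparison, since they are also expressed in nearly all cells but are not known as TOP messages.

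Consensus matches were searched in the 300 bases of each promoter, from 250 before to 50 after the start base, on both strands. Each sequence below is 140 bases, from 120 before to 19 after the start base, on the gene's strand, with matches in capitals. They are an open core promoter with a high signal (Rpl15), 2 open core promoters with low signals (Rps18 and Rpl19) and 2 paralogs with no open region at the start (Rpl3l and Rpl39l).
Rpl15: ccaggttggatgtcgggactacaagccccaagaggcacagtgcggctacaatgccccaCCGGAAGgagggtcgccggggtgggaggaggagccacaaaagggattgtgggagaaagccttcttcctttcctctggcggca
Rps18: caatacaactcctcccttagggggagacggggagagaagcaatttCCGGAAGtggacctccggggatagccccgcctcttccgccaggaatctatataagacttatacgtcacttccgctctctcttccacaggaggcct
Rpl19: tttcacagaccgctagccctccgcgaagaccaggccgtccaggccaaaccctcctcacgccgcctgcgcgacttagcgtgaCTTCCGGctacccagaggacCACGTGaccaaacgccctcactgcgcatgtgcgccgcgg
Rpl3l: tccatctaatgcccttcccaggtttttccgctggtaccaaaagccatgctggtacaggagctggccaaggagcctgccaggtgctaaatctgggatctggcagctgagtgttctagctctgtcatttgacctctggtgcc
Rpl39l: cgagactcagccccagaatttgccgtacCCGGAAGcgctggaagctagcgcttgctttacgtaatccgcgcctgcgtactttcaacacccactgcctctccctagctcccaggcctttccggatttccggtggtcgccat
They lie at chr14:18270967-18271106, minus strand, at chr17:33955646-33955785, minus strand, at chr11:98026590-98026729, plus strand, at chr17:24727706-24727845, plus strand and at chr16:10170108-10170247, plus strand. The capitals in Rpl15 and Rps18 are CCGGAAG, a core bound by ETS-family factors, with its first base at position -62 and -75 from the start. Rpl19 has the same core in the reverse direction at -39 and the E-box CACGTG at -19. Rpl39l has the ETS core at -92, so this core was present in a promoter without an open region as well, and Rpl3l has no match in this window.

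The ETS core CCGGAAG was present in 26 of the 74 promoters (35.1%), against 12.1% of all promoters, 16.2% of promoters of genes with an open region and 34.7% of mitochondrial ribosomal promoters. The share in the cytosolic and mitochondrial ribosomal genes was thus nearly the same. The YY1 core AAGATGGC was in 8 (10.8%), against 3.09% of all and 16.0% of mitochondrial ribosomal promoters. These 8 promoters belong to 6 genes, since annotated starts of Rpl35a lie close together and share the same match. All shares here count promoters, so a match shared by nearby starts of a gene counts more than once. The cyclic AMP response element TGACGTCA was in 5 (Rps9, Rpl18, Rpl27a, Rpl13 and Rpl26; 6.76%), against 2.36% of all and 3.01% of promoters of genes with an open region. The SP core GGGCGG was in 59.5%, close to the 62.2% of promoters of genes with an open region, and the NFY core CCAATC was in 14.9%, against 19.8% there. A TATAAA match was in 6.76% of the ribosomal promoters, close to the 6.95% of promoters of genes with an open region and the 6.67% of mitochondrial ribosomal ones, and in 12.1% of all. The AP-1 motif TGANTCA was in 2 of 74 (2.70%), against 5.23% of promoters of genes with an open region and 7.02% of all. The NRF1 core GCGCATGC was in 4.05%, against 10.7% of the mitochondrial ribosomal promoters, and the E-box CACGTG was in 10.8% against 8.05% of all. None of these motifs contains another, though matches can overlap by a few bases. A match describes letters and shows no binding. The plot of start and motif shares puts these numbers side by side.

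**Figure D1:**
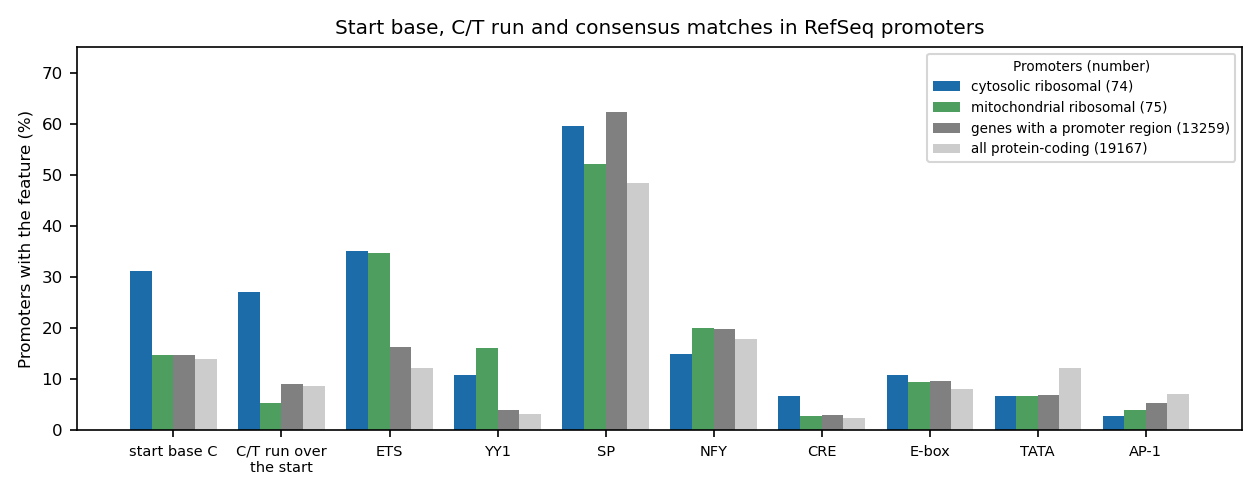
Share of RefSeq promoters (percent, y axis) with a C at the start base, with a run of at least 5 C or T bases over the start, or with a consensus match (x axis), for cytosolic ribosomal, mitochondrial ribosomal, open and all protein-coding promoters. Bars for the start base and the run are highest in the cytosolic ribosomal genes (31.1% and 27.0%), while the ETS bars of both ribosomal sets are alike (35.1% and 34.7%).

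A promoter region was counted where a region's summit, its point of highest coverage, lay within 1000 bp of any annotated start of a protein-coding transcript. Such a region was listed in both libraries for 78 of the 82 genes (95.1%), against 64.2% of all protein-coding genes, and no member had one in a single library. In such bulk samples, fewer cells with an open promoter and less opening per cell cannot be told apart. All 43 large subunit genes and all 30 small subunit genes were among the 78, as were 4 of the 8 paralogs and Rps19bp1. The 78 genes had 78 different regions, so no region was counted for more than 1 member. The mitochondrial ribosomal genes had 77 of 78, other genes with TOP messages (elongation factors, initiation factor 3 subunits and others) 19 of 19, and ribosome biogenesis genes 36 of 37. Near-complete opening of promoters was therefore shared with other housekeeping sets of the translation machinery. Of ribosomal genes that the rule leaves out, Fau, Rack1 and the X-linked Rpl10, Rpl36a, Rpl39 and Rps4x each had a region in both libraries, from a mean signal of 5.15 in Fau to 11.6 in Rpl36a.

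The signal, as used here, is the authors' fold value of a region: summit coverage over a local background. The median over the 78 genes was 9.71 in replicate 1 and 8.96 in replicate 2, and 9.41 for the mean of both libraries. Over all 13302 protein-coding genes with a promoter region the medians were 11.5 and 10.9, and 11.2 for the mean. Of the 78 genes, 56 lay below the median of all genes, 30 lay at or below the 25th percentile of all genes and 2 above the 75th, among them Rps29. The quartiles were 6.86 and 11.6, and the range ran from 3.54 to 15.3. Large subunit genes had a median of 8.13 and small subunit genes 9.75, and the 4 open paralogs 12.8. The medians of the comparison sets were all higher: 13.3 for mitochondrial ribosomal, 11.3 for other TOP and 11.1 for biogenesis genes. In these T cells the ribosomal promoters were thus nearly always open, with fold values below the typical open promoter.

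**Figure D2:**
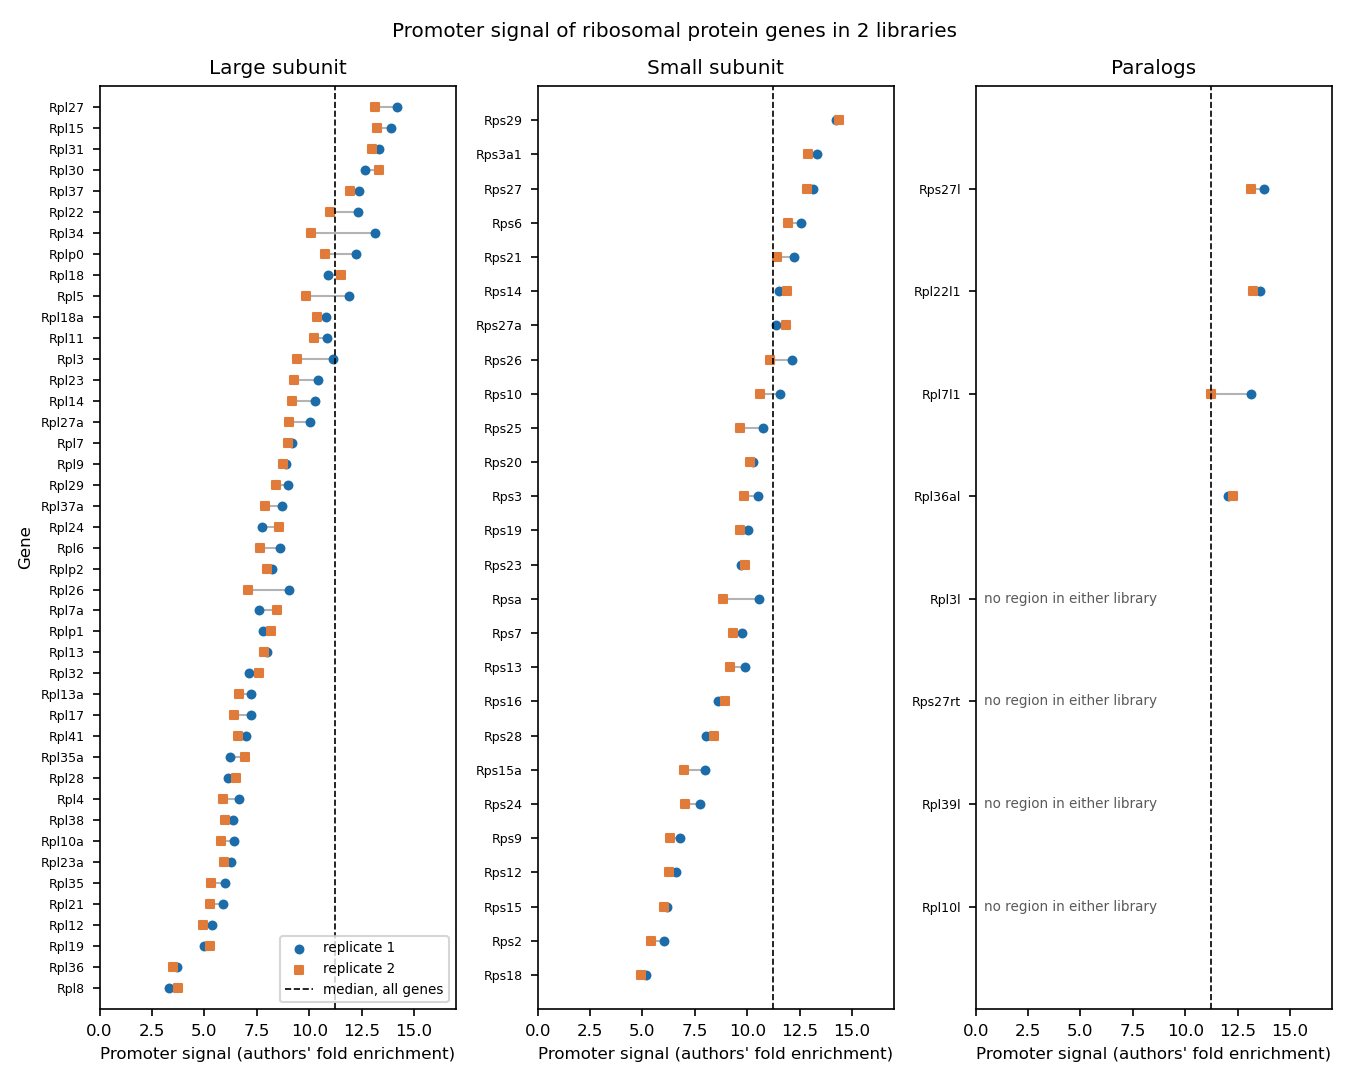
Promoter signal (authors' fold enrichment, x axis) of each gene (y axis) in replicate 1 (circles) and replicate 2 (squares), by subunit. The dashed line is the median of all protein-coding genes, 11.2, and most points lie to its left, with Rpl8 at 3.32 and 3.75. Rps19bp1 and 4 members not reported by name are not drawn.

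Among large subunit genes, Rpl27 had the highest signal, 14.2 in replicate 1 and 13.1 in replicate 2, followed by Rpl15 with 13.9 and 13.2. Rpl31 (13.3 and 13.0) and Rpl30 (12.7 and 13.3) came next. Their order differed between the libraries, so these neighbours did not differ beyond the spread of 2 libraries. At the other end, Rpl8, which lies near the peptidyl transferase centre, had 3.32 and 3.75, and Rpl36 had 3.67 and 3.52. Rpl19 had 4.96 and 5.27, and Rpl12, a protein of the stalk base, had 5.37 and 4.94. The lowest 2 swapped places between libraries, and both were below every other member in each library.

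The stalk proteins Rplp0, Rplp1 and Rplp2 recruit and stimulate the translation factors that act on the ribosome. Rplp0 had signals of 12.3 and 10.7, Rplp1 of 7.79 and 8.19 and Rplp2 of 8.24 and 7.97. Rplp0 was higher than its partners in both libraries, and Rplp1 and Rplp2 were not separated. Rpl5 and Rpl11, which with 5S ribosomal RNA bind Mdm2 and restrain p53 breakdown when ribosome assembly fails, had 11.9 and 9.83, and 10.9 and 10.3. Rpl22, which developing alpha beta T cells require, had 12.3 and 11.0. Rpl38, known for its part in translating Hox messages, had 6.39 and 5.98.

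Among small subunit genes, Rps29 had a signal near the top, 14.2 and 14.4. Rps3a1 (13.3 and 12.9) and Rps27 (13.1 and 12.9) were next. Near the lower end, Rps18 had 5.16 and 4.94, and Rps2 6.05 and 5.42. Rps29 lay above Rps3a1 and Rps27, and Rps18 below Rps2, in both libraries. Rps6, the substrate of the S6 kinases, had 12.6 and 11.95. Rps19, the gene most often mutated in Diamond-Blackfan anaemia, had 10.03 and 9.65, and Rps26, also mutated in it, had 12.1 and 11.1. Rps14, whose loss marks the 5q- syndrome, had 11.5 and 11.9. Rpsa, also known as a laminin receptor precursor, had 10.5 and 8.87. Rps27a, made as a fusion to ubiquitin, had 11.4 and 11.8.

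The paralogs fell into open and unlisted promoters. Rps27l, a p53 target, had 13.7 and 13.1 beside 13.1 and 12.9 for Rps27. Rpl22l1 had 13.6 and 13.2 beside 12.3 and 11.0 for Rpl22, and was higher in both libraries. Rpl7l1 had 13.1 and 11.2 beside 9.16 and 8.97 for Rpl7, again higher in both. Rpl36al, the autosomal counterpart of the X-linked Rpl36a, had 12.02 and 12.3 beside 11.3 and 11.9. All 4 open paralogs lay above the median of all genes, 11.2, for the mean of both libraries.

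The 4 genes with no promoter region in either library were all paralogs. Rpl10l is an intronless copy of the X-linked Rpl10 used in male germ cells, and the nearest summit to its start was 192 kb away in replicate 1 and 938 kb in replicate 2, while Rpl10 itself had 9.54 and 9.43. Rpl3l is a paralog of Rpl3 used in heart and skeletal muscle. Its nearest summits lay 3453 and 3408 bp upstream, whereas Rpl3 had a promoter signal of 11.1 and 9.40. That strongest Rpl3 region has its summit over 500 bp from a start, and with a 500 bp window, or with the region whose summit is nearest to a start, the Rpl3 mean was 6.19 in place of 10.3. Rpl39l, a testis paralog of the X-linked Rpl39, had weak regions with signals of 3.81 and 3.61 whose summits lay 1131 and 1208 bp downstream of its start, just past the 1000 bp limit that Rpl7 was just inside, and Rpl39 had 8.50 and 9.64. The retrogene Rps27rt had its nearest summits 2349 and 4059 bp away. Its RefSeq promoter entry, longer than the start sequence printed above, shares an unbroken 38 bases with that of Rps27, beginning at the start base of Rps27rt and 1 base after that of Rps27. Before that stretch the longest shared run in their promoter entries was 10 bases. Over the 250 bases before each start, compared position by position, 26.4% held the same base. That comparison is 1 base out of register with the shared stretch, so it cannot show whether the upstream sequences are alike. The 2 genes thus share the transcribed start, with no unbroken run longer than 10 bases shared upstream of it. Of the pair the parent had a region of 13.1 and 12.9. How the authors treated reads that fit both copies is not given in the sources used here, and its part in this difference was not tested.

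Ribosomal proteins have left many processed pseudogenes, copies of spliced messages inserted elsewhere without a promoter. A set of 252 such copies, with an Rpl or Rps symbol carrying a ps suffix, lay over 2000 bp from any protein-coding start. Ribosomal copies with other symbols, if any, were not in this set. Of the 252, 7 (2.78%) had a region at their 5′ end in both libraries, against 3.47% of all 8963 processed pseudogenes placed likewise. The 7 were Rpl10-ps2, Rps15a-ps5, Rpl34-ps1, Rpl21-ps13, Rpl21-ps8, Rpl21-ps10 and Rpl35a-ps2. The highest were Rpl10-ps2 with 12.2 and 13.4 and Rps15a-ps5 with 11.9 and 12.4, and the lowest was Rpl35a-ps2 with 2.10 and 2.16. The share was close to the background of all processed pseudogenes. How reads that fit several copies were treated is not given, and its part in these shares was not tested.

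The fold value could be split into its 2 parts. Fold and p-value of a region together fix a whole-number summit coverage and a local background under a Poisson model, and this solution was found for 77974 of the 78016 regions of replicate 1 and 74648 of the 74653 of replicate 2. Whether coverage counts reads or fragments is not stated, and the split was made after the values were seen. Median summit coverage of the 78 promoters was 312.5 in replicate 1 and 219 in replicate 2, against 268 and 192 for all genes. Median local background was 32.9 and 24.4, against 21.9 and 16.2. So coverage at the summit was higher than that of the typical open promoter, while the background was higher by a larger factor. Of the 78, 68 had a background at or above the median of all genes and 28 had coverage below it. In the mitochondrial ribosomal genes coverage was 264 and 199 and background 20.1 and 14.6, so beside the cytosolic ribosomal genes their higher fold came with lower background and also lower coverage. Other TOP genes had a coverage of 367 and 267 over a background of 31.3 and 22.5, with 14 of 19 at or above the median background. High coverage over a high background was thus not particular to the cytosolic ribosomal genes. Biogenesis genes had 275 and 196 over 25.1 and 18.4.

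**Figure D3:**
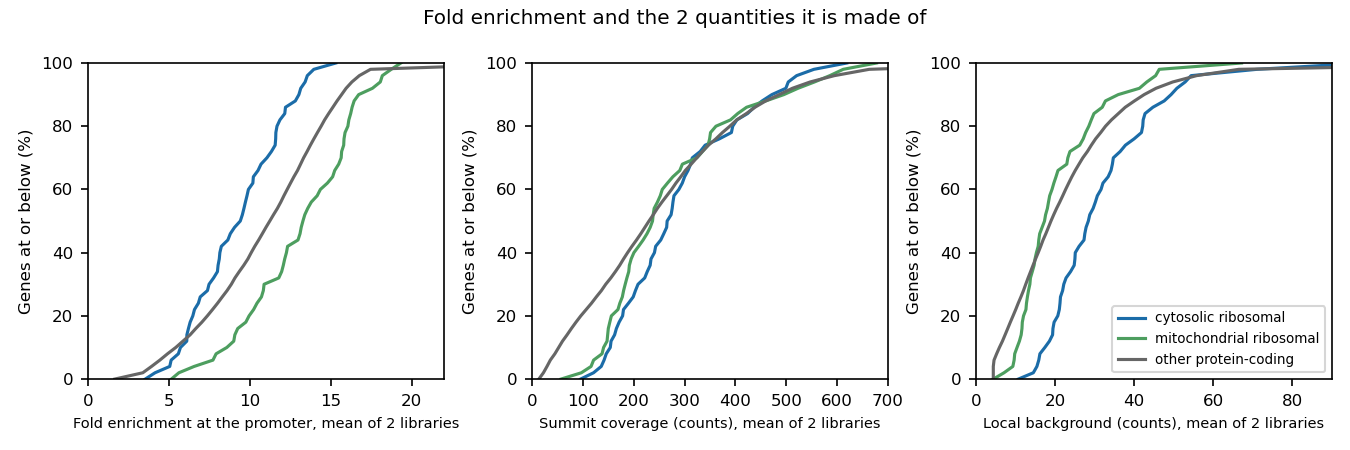
Cumulative share of genes (percent, y axis) at or below each fold enrichment, summit coverage and local background (x axes, mean of both libraries), for cytosolic ribosomal, mitochondrial ribosomal and other protein-coding genes with a promoter region. The cytosolic ribosomal curve lies left of the others for fold and right of them for background over most of the range.

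Single genes show the same split. Rpl13a, on chromosome 7, had a background of 101 and 75.3, above that of 99.4% of all genes for the mean. Rpl13a also had the highest summit coverage of all members, 732 and 506, yet its fold was 7.21 and 6.65. Rpl8 and Rpl36 reached their low folds differently: Rpl8 had a coverage of 129 and 114 over a background of 38.1 and 29.6, and Rpl36 had 204 and 153 over 54.8 and 42.7. Rps29 combined a coverage of 573 and 431 with a background of 39.4 and 29.0. The reverse case was the strongest region of Rpl3, with the lowest background of all, 12.3 and 9.10, and a coverage of only 147 and 94, which still gave a fold of 11.1 and 9.40. Rpl4 had the lowest coverage, 113 and 78. Ranking these promoters by fold and by coverage thus gives different orders, and over the 78 genes Spearman's rho between the 2 was 0.446, against 0.518 over all genes, with fold computed from coverage.

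**Figure D4:**
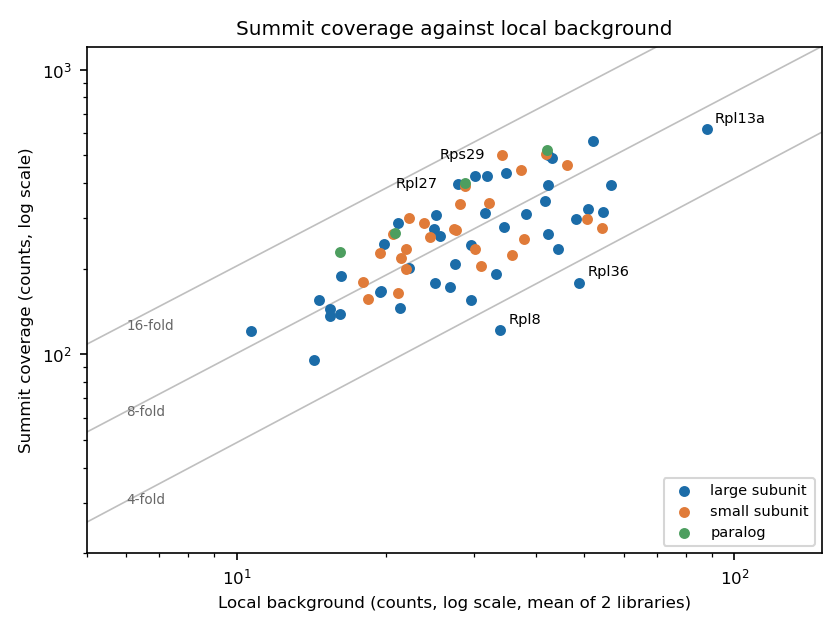
Summit coverage (y axis) against local background (x axis), both in counts on log scales and as the mean of 2 libraries, for large subunit, small subunit and paralog promoters, without 4 members not reported by name. Grey lines join points of equal fold (4, 8 and 16): Rpl13a lies far right with high coverage, while Rpl8 and Rpl36 lie near the 4-fold line.

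Beside the higher background, more open DNA was listed around these promoters. A further region lay within 5 kb of the summit in 62.8% of the 78 genes, against 34.8% of all genes with a promoter region and 31.2% of mitochondrial ribosomal genes. Counting all regions in that window, a median of 1654 bp was covered, against 1426 bp. Large subunit genes had 1848 bp and small subunit genes 1574 bp. The part of these neighbouring regions in the background was not tested. Host genes of small nucleolar RNAs made up 28 of the 82 (34.1%), against 1.16% of all protein-coding genes, with 5 such RNAs in Rpl4 and 4 in Rpl13a. All 28 hosts had a promoter region, with a median signal of 8.45, against 9.76 in the 50 open members that host none. The 2 groups differ in make-up: 18 hosts are large subunit genes (median 8.13 over that subunit). The open paralogs (median 12.8) are all among the 50. The part of this in the difference was not tested. Another gene's start lay within 1000 bp in 17 of the 78 (21.8%), against 18.6% of all genes and 44.2% of mitochondrial ribosomal genes. The median signal was 10.2 in these 17 and 9.28 in the other 61.

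Promoter regions of the ribosomal genes had widths close to those of other genes, with summits nearer to the start than in all genes together, as in other sets of the translation machinery. Median width was 1212 bp in replicate 1 and 1204 bp in replicate 2, against 1257 and 1243 bp. For the mean of both libraries it was 1256 bp in the members and 1251 bp in all genes. The widest was that of Rpl7, 2476 and 2464 bp, followed by Rpl36 with 2237 and 2585 bp, Rpl10a with 2276 and 2293, Rpl38 with 2076 and 2079 and Rpl4 with 2052 and 2041. The narrowest were those of Rps28, 633 and 638 bp, Rpl8 with 576 and 717, Rpl41, which encodes a very short basic protein, with 727 and 624, Rpl26 with 801 and 773, and Rpl24 with 761 and 835. Rpl36 was thus among the widest and the weakest regions at once, whereas Rpl8 was narrow and weak. Width and fold were only loosely related (Spearman's rho 0.195, n = 78 genes of the same 2 libraries).

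The summit lay a median of 64.3 bp from the nearest annotated start, against 81.5 bp for all genes, 56 bp for mitochondrial ribosomal and 40.3 bp for biogenesis genes. It was within 150 bp in 70 of the 78 genes in each library (89.7%), against 70.1% and 69.8% of all genes, and 81.8% and 87.0% of mitochondrial ribosomal genes. The typical summit was slightly upstream, at -26.5 and -27.5 bp. Measured from the start, regions reached a median of 530 bp upstream and 663 bp downstream, against 528 and 688 bp. The summits farthest from a start were those of Rpl7 (at -881 and -731 bp, upstream), Rpl3 (564 and 563 bp downstream), Rpl38 (479 bp downstream in both) and Rpl35 (441 and 435 bp downstream). In Rpl4 the summit was at -501 bp in replicate 1 and 25 bp downstream in replicate 2, inside a region of nearly the same width, so the summit of this wide region was not fixed by these data.

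**Figure D5:**
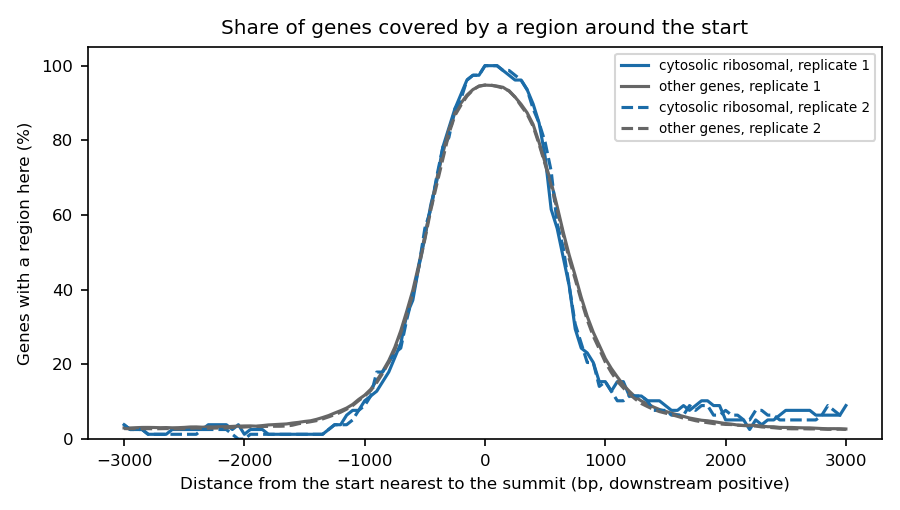
Share of genes (percent, y axis) with an open region at each distance from the start nearest to the summit (bp, x axis, downstream positive), for the 78 cytosolic ribosomal genes and the other genes with a promoter region, in replicates 1 (solid) and 2 (dashed). Near the start both sets are nearly alike in shape, and the ribosomal curve reaches higher there and falls off slightly nearer to it downstream. Farther downstream the ribosomal curve lies mostly higher, with 10.3% and 8.97% against 5.04% and 4.63% at 1800 bp. At 3000 bp the shares are 8.97% and 6.41% against 2.70% and 2.58%.

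The 2 libraries gave close values for single genes. The log2 ratio of signal in replicate 1 over replicate 2 had a median of 0.07 and a standard deviation of 0.11 over the 78 genes, against 0.06 and 0.15 over all genes. Replicate 1 was higher in 59 genes and replicate 2 in 19. The largest difference was in Rpl34, 13.1 against 10.1, a log2 ratio of 0.38 or 1.30-fold. Rpl26 (9.01 and 7.07), Rpl5, Rpsa and Rpl3 followed, with log2 ratios from 0.35 to 0.24, and all 5 were higher in replicate 1. The other extreme was Rpl8, at -0.18. Across the 78 genes Spearman's rho between libraries was 0.970 for signal and 0.810 for width, and the points share both libraries. The range of signals over genes, 3.54 to 15.3, was therefore wide beside the difference between libraries, although neighbours in the order were mostly not separated.

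Regions away from promoters were counted where a region listed in both libraries had its summit over 1000 bp from any protein-coding start and lay in the gene or its 20 kb flanks. At least 1 was found for 74 of the 82 genes, against 73.8% of all genes. None was found for 8 members (9.76%), against 26.2% of all genes, and the median was 2 in both. Loci of ribosomal genes are short: the median gene length was 3400 bp, against 17596 bp, and 69 of the 82 had loci, with flanks, no longer than 45.4 kb, a length class in which the median count was 1. Against the median of genes of like locus length, 56 members had more such regions, 17 as many and 9 fewer. Of all 20722 protein-coding genes, with or without an open promoter, 8518 had more, 3514 as many and 8690 fewer. Among the 19 other TOP genes, 12 had more, 5 as many and 2 fewer, so such an excess was not particular to the ribosomal genes. For the 78 mitochondrial ribosomal genes the counts were 36, 16 and 26, and for the 37 biogenesis genes 13, 12 and 12. The 194 gene and region pairs held 193 different regions, with a median signal of 5.22 in the stronger library. Most were outside the genes, with 17 regions in the bodies of 11 genes (13.4% of members, against 43.9% of all genes).

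Rps14 had the most, 7, and Rpl11 followed with 6. Both have the longest annotated spans among the members, 31449 and 25164 bp, and each held 3 of its regions inside that span. In Rps14 these 3 lay upstream of its promoter region, which was itself well inside the annotated span. The strongest of these inside regions had a signal of 11.98 in Rps14 and 12.4 in Rpl11. Rpl18, Rpl26, Rpl3 and Rplp1 were among 6 members with 5 each. The strongest region of all was at -15292 bp from the 5′ end of Rpl32, with 19.7, well above the promoter of Rpl32 itself, 7.12 and 7.62. Other strong ones lay in the flanks of Rpl3l (17.6), Rps14 (17.2) and Rpl41 (16.7). Which gene such a region serves is not given by these data, and other genes lie in the same flanks. There were 8 members with none, among them Rpl10l, Rpl13a, Rpl7l1, Rplp2, Rps2, Rps27 and Rps27rt. Rpl10l and Rps27rt were therefore without a shared region at the start and without a counted distal region. The other 6 had an open promoter and no counted distal region. Regions with a summit within 1000 bp of another gene's start were not counted, so such members can still have regions nearby. For example, the region upstream of Rpl3l, with 4.57 and 4.85, lies in the flank of Rps2.

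Sequence composition was compared with the signal as well. The promoters had a median GC content of 58.8% and 22 CpG, against 61.0% and 20 in promoters of genes with an open region and 57.3% and 14 in all. Spearman's rho between GC content and signal was 0.07 over the 58 open members in the promoter table and -0.04 over all genes. Median signal was 9.95 in the 24 open genes with the ETS core and 8.80 in the 34 without it, and 9.79 in the 37 with the SP core against 8.21 in the 21 without. These differences are small beside the range of single genes: Rpl15 and Rps18 both carry the ETS core in their promoter entries and a C start in a long C and T run, and their signals were 13.9 and 13.2 against 5.16 and 4.94.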

How the data were processed

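The 2 ATAC-seq region lists were used as deposited, each called on 1 library on the mm10 build, per the labels. The aligner, the caller, its threshold and any shift of reads for the transposase are not given in the sources used here, and reads were not analysed here. Column 5 of the deposited files is a score derived from the q-value and was not used. The authors' signal value in column 7 was read, from its values, as a fold ratio of summit coverage over local background. The deposited −log10 p and −log10 q were taken as they stand, and no scaling between libraries is stated by the authors.

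The autosomes and both sex chromosomes were analysed, without the 88 and 80 regions on other sequences. Starts came from GENCODE mouse release 21 and promoter sequences from RefSeq (GRCm38.p6). A gene's promoter region was the strongest with its summit within 1000 bp of a protein-coding start. Distal regions overlapped between libraries by at least 1 bp. Summit coverage n and background b were solved from fold = (n + 1)/(b + 1) and the Poisson p, with a tolerance of 0.001 in log10. The steps were tested on simulated regions. Python 3.11.15, numpy 2.4.6, pandas 2.3.3, scipy 1.17.1 and matplotlib 3.10.9 were used. No test was run, because there is 1 group of 2 libraries and genes are not replicates.

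Any member could be named. Values are given for the strongest, weakest, widest and narrowest 5, the 5 with the farthest summits, the most distal regions and the largest library ratios, every member without a region, the stalk genes, the paralog pairs and Rpl5, Rpl11, Rps19, Rps26 and Rps6. Other genes were named after their values were seen. A few genes are not reported here by name, though all counts and medians include them. The members and lists were chosen with earlier results of these data known. Of the comparison lists, Gas5 had no protein-coding start, leaving 19 of 20 TOP genes. Rps4l, the planned partner of Rps4x, was not analysed here. Alternatives changed the window, the starts, the region chosen, the threshold, the flanks and the library. The 2 libraries belong to 1 group, so there was nothing to pair.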

Additional observations from a re-analysis of the deposited data

How the results depend on the processing

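The number of members with an open promoter stayed between 74 and 79 in every setting tried. Summits within 500 bp lost Rpl7 and Rpl4 (76), the 5′ end of the gene alone lost Rps2, Rps10 and Rpl17 (75), and the 50000 strongest regions of each library lost 4 members, among them Rpl19, Rpl8 and Rpl36 (74). A 2000 bp window, or any base of a region within 1000 bp, gained Rpl39l (79). The median signal stayed between 8.95 and 9.71. Of single promoters, the mean signal of Rpl3 fell from 10.3 to 6.19 with summits within 500 bp and with the summit nearest to a start, and that of Rpl18 from 11.2 to 4.05 with the latter. The split into coverage and background, chosen after seeing the data, gave medians of 219 to 312.5 and 24.4 to 32.9.

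The median width was 1242 bp with the 50000 strongest regions and 1203.5 to 1212 bp when either library was left out. The median summit distance was 58.75 bp for summits within 500 bp, 65.5 bp with 2000 bp and with any base of the region, 63 bp with the 5′ end alone, 61.75 bp for the summit nearest to a start, and 60.5 to 62 bp when either library was left out. The median number of distal regions was 0 in the gene body alone, 5 with 50 kb flanks, 1 with the 50000 strongest regions and 3 to 3 when either library was left out. Over all genes these medians were 0, 4, 1 and 2. With the 50000 strongest regions, members with at least 1 distal region fell from 74 to 57 of 82. The share of all genes fell from 73.8% to 65.3%. No paired analysis was possible because both libraries belong to 1 group.

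Depth is unknown, which limits what an unlisted region shows. The 2 libraries share 1 donor record, so technical and biological spread cannot be told apart.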
